A study of Mus musculus with 3 samples.

Results

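The AP-1 and immediate early genes described here are 9 mouse genes: the Fos family genes Fos, Fosb, Fosl1 and Fosl2, the Jun family genes Jun, Junb and Jund, the related gene Atf3, and Egr1. They were found by gene name among the non-control probes of 3 Agilent arrays, where Jund carries its older name Jund1. This gave 11 probes of 41174, with 2 each for Fosl2 and Junb and 1 for every other gene, and the 9 genes stand among 27597 gene labels. The arrays measured total RNA, labelled with the dye Cy3, from mouse embryonic fibroblasts lacking p53 (labelled p53-null Nanog-GFP MEF), from fibroblasts described in the series design as wild type (labelled Nanog-GFP MEF), and from embryonic stem cells (labelled Nanog-GFP ES cells). All carried the Nanog-GFP reporter, a green fluorescent protein gene under control of the pluripotency gene Nanog. Below they are called p53-null MEF, MEF and ES cells. Strain, embryo age, passage and culture conditions were not given in the sources used here, nor how the p53 gene was removed or how many embryos gave the cells. The series addresses the role of p53 when fibroblasts are made into induced pluripotent stem cells, and its design sets p53-null MEF and ES cells each against MEF.

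AP-1 is a transcription factor built of 2 basic leucine zipper proteins. Jun proteins pair with each other or with Fos proteins, while Fos proteins need a Jun partner to bind DNA, and Atf3 belongs to a neighbouring family that pairs with Jun proteins. Many of these genes are immediate early genes: growth factors, serum or stress switch on their transcription through MAP kinases and serum response factor without new protein synthesis, and the RNA is short-lived. Fos, Fosb, Junb, Atf3 and Egr1 are known for such brief peaks, whereas Fosl1, Fosl2 and Jund are known to be held at steadier levels in growing fibroblasts. In fibroblasts AP-1 activates genes of matrix breakdown, adhesion and the cell cycle.

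The promoters of 4 genes are shown because Fos and Fosb were the members more than 2-fold higher in p53-null MEF, and Jun and Fosl2 those furthest below MEF in ES cells. Each sequence is the 250 bases before the annotated start, 5′ to 3′ on the gene's strand, taken from RefSeq on build GRCm38.p6, whose table held 7 of the 9 genes. They lie at chr12:85473640-85473889 for Fos (plus strand), chr7:19310046-19310295 for Fosb (minus strand), chr4:95052223-95052472 for Jun (minus strand) and chr5:32136222-32136471 for Fosl2 (plus strand). Capitals mark matches to the letters searched on both strands.
Fos: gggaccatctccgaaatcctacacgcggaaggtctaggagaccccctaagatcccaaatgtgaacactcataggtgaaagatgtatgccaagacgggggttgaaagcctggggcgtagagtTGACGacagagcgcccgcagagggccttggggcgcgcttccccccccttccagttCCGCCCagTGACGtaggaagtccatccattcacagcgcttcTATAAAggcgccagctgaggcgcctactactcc
Fosb: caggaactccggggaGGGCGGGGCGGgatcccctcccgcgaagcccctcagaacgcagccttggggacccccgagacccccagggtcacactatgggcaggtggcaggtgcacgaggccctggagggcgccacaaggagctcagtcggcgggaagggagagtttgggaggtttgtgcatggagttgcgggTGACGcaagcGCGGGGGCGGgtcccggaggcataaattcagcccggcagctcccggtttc
Jun: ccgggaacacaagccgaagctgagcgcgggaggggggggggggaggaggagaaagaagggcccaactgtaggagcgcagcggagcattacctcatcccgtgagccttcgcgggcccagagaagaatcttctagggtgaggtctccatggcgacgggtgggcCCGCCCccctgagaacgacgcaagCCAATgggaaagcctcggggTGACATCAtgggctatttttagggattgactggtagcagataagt
Fosl2: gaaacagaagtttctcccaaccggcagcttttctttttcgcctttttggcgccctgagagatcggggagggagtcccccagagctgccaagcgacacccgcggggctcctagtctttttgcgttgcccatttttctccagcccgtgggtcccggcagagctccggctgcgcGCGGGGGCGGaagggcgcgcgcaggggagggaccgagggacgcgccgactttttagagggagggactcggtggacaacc
The letters searched were TGACTCA (the AP-1 site), TGACGTCA (the cyclic AMP response element), TGACG (its half-site, contained in it), TGACATCA (a variant AP-1 site), GCGGGGGCG and GCGTGGGCG (Egr sites), GGGCGG (the GC box, which overlaps the Egr site in Fosb and Fosl2), CCAAT (bound by NF-Y), the core promoter element TATAAA and the element for serum response factor known as the CArG box. The Fos window held TGACG at 129 and 66 bases before the start and TATAAA at 33 bases. Fosb held TGACG at 60 bases and GCGGGGGCG at 50 bases, and Fosl2 held GCGGGGGCG at 79 bases. The Jun window held CCAAT at 65 bases and TGACATCA at 45 bases. Of 32851 promoter windows of the same length, 17.8% held TGACG, 2.93% TGACATCA, 2.57% GCGGGGGCG, 12.4% TATAAA, 33.8% CCAAT and 32.7% the GC box. The AP-1 site TGACTCA (4.46% of all windows), TGACGTCA (1.55%), GCGTGGGCG (0.536%) and the CArG box (1.47%) were in none of the 7 member windows. These matches describe letters in the window and were not tested for binding. Bases further upstream were not searched, and Fosl1 and Egr1 had no window. An absence therefore holds for the 250 bases searched and not for the whole promoter.

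Each group was 1 array, so no test between groups was possible and the number of arrays limits the precision. Signals are in scanner units, after the scanner software subtracted a fitted background surface. Folds compare arrays after each was divided by the 75th percentile of its spots, which was 1040 units for p53-null MEF, 834 for ES cells and 829 for MEF. Errors given after ± come from the scanner software's error model, combined over both arrays, and hold no difference between cultures. The ES cell and MEF arrays were on 1 slide and the p53-null MEF array on another with its own scan, so slide, scan and p53 genotype cannot be told apart. Trp53, the p53 gene, had 56.2 units in p53-null MEF, 1304 units for MEF and 4900 for ES cells at its brighter probe. That is a log2 difference of -4.87 in p53-null MEF and 1.90 in ES cells, while its other probe differed by -1.46 and by -0.92, the opposite direction in ES cells. Xist, made by female cells, had 7437 units in the p53-null array but no signal well above background on the MEF array, while for Ddx3y of the Y chromosome MEF had 526 units and p53-null MEF none well above background, so embryo sex and genotype cannot be told apart either. All 10 fibroblast markers were well above background on all arrays. Before scaling their signals summed to 565326 units in p53-null MEF, 604132 units for MEF and 12128 for ES cells. After scaling the sums were 544, 729 and 14.5 in the same order. All 8 ES cell markers were well above background in ES cells, while Pou5f1, Nanog, Zfp42 and Esrrb were not in either fibroblast sample. The markers of each cell type were thus highest under the matching label.

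**Figure D1:**
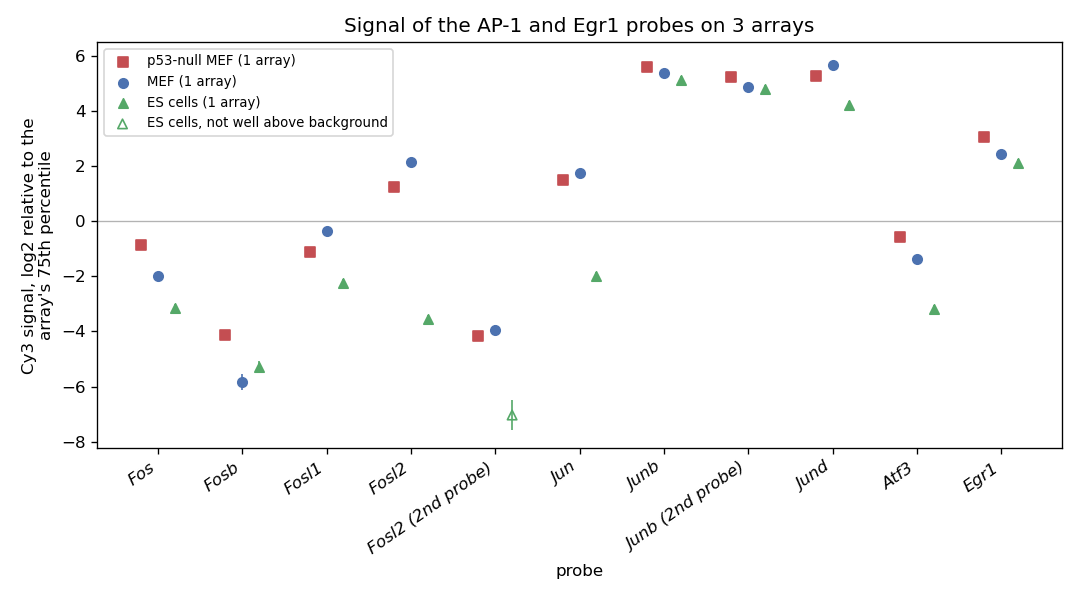
Cy3 signal of each of the 11 probes on the 3 arrays, as log2 relative to the array's 75th percentile, with squares for p53-null MEF, circles for MEF and triangles for ES cells, and bars for the error model of the single array (often smaller than the symbol). Heights may be compared within a probe, not between probes. ES cells lie lowest for 8 of 9 genes and highest for 0, though for Junb and Egr1 the difference from MEF is within 2 times its error. The share of all genes lowest in ES cells was not computed. The open triangle, the second Fosl2 probe, was not well above background.

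Setting p53-null MEF against MEF asks what differs with the loss of p53 in the cells of origin. Fos and Fosb were higher in p53-null MEF, by 2.17-fold and 3.20-fold, and Atf3 and Egr1 were higher by 1.74-fold and 1.53-fold. Fosl2 was 1.87-fold, Fosl1 1.69-fold and Jund 1.34-fold lower, and, although each turned positive when arrays were scaled on spike-ins, each stayed below the median of all genes there. That scaling adds 1.97 to every log2 difference of p53-null MEF and brings the median of all genes to 2.08, and whether spike-ins were added in equal amounts was not given in the sources used here. Jun and Junb differed by less than 2 times their error. In all, 2 of 9 genes were at least 2-fold higher, against 18.6% of 17392 gene labels measured. None of the 9, that is 0, was lower by as much, against 16.6%, and 35.2% of all gene labels were past 2-fold either way. Without scaling 27.4% of all labels were higher and 11.1% lower, and with spike-ins 84.0% and 1.69%. In the main setting the counts of the 9 members lie near the shares of all labels, and how far they differ was not tested. The median log2 difference of the members was 0.21, and that of all genes 0.03.

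Among the Fos family, Fos, the founding partner of Jun, was printed at 10 spots. Its probe at chr12:86366053-86366112 (build mm8, as 1 of the array designs gives all probe positions here, while the other arrays cite mm7) gave 573 units in p53-null MEF, 210 units for MEF and 93.9 units in ES cells. Over its spots the signal ran from 541 to 601 units in p53-null MEF, with 1 spot left out as an outlier, from 182 to 224 in MEF and from 88.1 to 99.3 in ES cells. The spots of the 3 arrays did not overlap, p53-null MEF being highest and ES cells lowest. How many other probes with repeated spots separate in this way was not computed, so this cannot be read as a trait of Fos. The difference of p53-null MEF from MEF was 1.12 ± 0.21 on the log2 scale. With normexp background correction it was 0.97 and 0.98 under 75th percentile scaling and quantile normalization, which puts it just under 2-fold.

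Fosb, a Fos paralogue with a known truncated splice form, gave 59.0 units in p53-null MEF, 14.7 units for MEF and 21.4 for ES cells at chr7:18461650-18461709. All of these are dim, and the MEF value is close to the 12.4 units that bound the signals called above background there. Its difference was 1.68 ± 0.33 in p53-null MEF against MEF. With normexp correction, which adds 50 units to every spot and so compresses dim signals, it was 0.44 with 75th percentile scaling and 0.61 with quantiles, so that 0 of 9 genes were at least 2-fold higher with that correction. Fosb and Fos were the only members past 2-fold in the main setting, and neither was past it with normexp.

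Fosl1, which encodes Fra-1 and is itself a known AP-1 target, gave 476 units in p53-null MEF, 642 units for MEF and 176 for ES cells at chr19:5455496-5455555. It was highest in MEF once the arrays were scaled, with a difference of -0.76 ± 0.20 between p53-null MEF and MEF, which became 1.21 with scaling on spike-ins. Fosl2, which encodes Fra-2, gave 2458 units in p53-null MEF, 3655 units for MEF and 70.6 for ES cells at its brighter probe, chr5:32433832-32433891. Its difference was -0.90 ± 0.20, or 1.07 with spike-ins. The second Fosl2 probe, at chr5:32429296-32429355, gave 58.3, 54.1 and 6.37 units in the same order, and differed by -0.22 ± 0.23 between the fibroblast arrays. The Fosl2 probes thus disagreed on the size of the difference, which was within the error at the dimmer one. Fos and Fosb on the one side and Fosl1 and Fosl2 on the other lay on opposite sides of MEF in the main setting, and on opposite sides of the median of all genes with spike-ins, where all 4 were above 0. Relative to that median Fosb was at 1.56, Fosl1 at -0.87 and Fosl2 at -1.02, and Fos, at 3.09 before the median of 2.08 is taken off, lay above it.

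Of the Jun family, Jun, the central AP-1 subunit, was also printed at 10 spots, at chr4:94541191-94541250. It gave 2953 units in p53-null MEF, 2783 units for MEF and 213 for ES cells. In scaled log2 values its spots ran from 1.35 to 1.64 in p53-null MEF, from 1.64 to 1.86 in MEF, where 2 spots were left out, and from -2.10 to -1.89 in ES cells. The fibroblast arrays lay next to each other without overlap and the ES cell array far below. As for Fos, other probes were not examined in this way. The difference between p53-null MEF and MEF was -0.24 ± 0.20, which is within 2 times its error. Unscaled arrays gave 0.09 and spike-ins gave 1.73, both of which shift all genes alike, and relative to the median of all genes it was -0.29 and -0.36 in these settings. Junb, known to restrain Jun in growth control, gave 49942 units in p53-null MEF, 34520 units for MEF and 28955 for ES cells at its brighter probe, chr8:87867087-87867146, and differed by 0.21 ± 0.20. The second Junb probe, at chr8:87867049-87867108, gave 38693, 24152 and 22840 units and differed by 0.35 ± 0.20. The Junb probes share 22 of their 60 bases, ttcgtgtctaaagtctatttta, so they are not independent measurements. Jund, the steady member of the family, gave 39431 units in p53-null MEF, 42125 units for MEF and 15573 for ES cells at chr8:73629526-73629585. Its difference of -0.42 ± 0.20 was little more than 2 times its error, and was 1.55 with spike-ins, or -0.54 relative to the median of all genes.

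Atf3, a stress-induced member of the ATF family, gave 691 units in p53-null MEF, 317 units for MEF and 91.7 for ES cells at chr1:192871283-192871342. Its difference was 0.80 ± 0.20, highest in p53-null MEF and lowest in ES cells. Egr1, a zinc finger factor that serum induces together with Fos, gave 8567 units in p53-null MEF, 4450 units for MEF and 3590 for ES cells, and differed by 0.62 ± 0.20. Over 9 alternative settings the difference ran from 0.65 to 2.77 for Atf3 and from 0.43 to 2.59 for Egr1, so both were higher in p53-null MEF in each, though under 2-fold in the main setting.

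**Figure D2:**
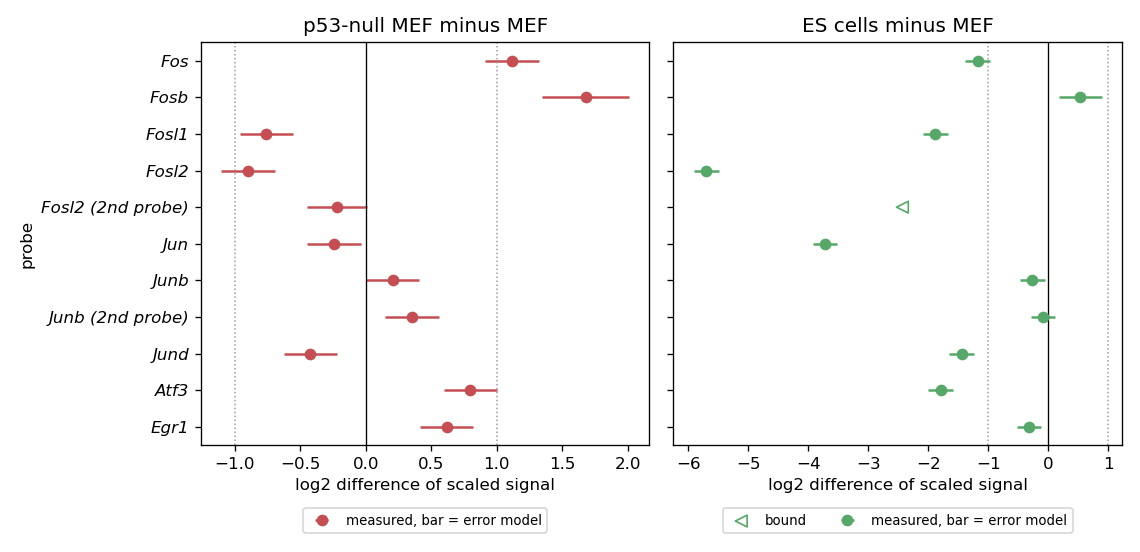
Log2 difference of scaled signal from MEF for each probe, p53-null MEF on the left and ES cells on the right, with the error model's error as bars and dotted lines at 2-fold; the axes have different ranges. On the left Fos and Fosb are past 2-fold and the Fosl1, Fosl2 and Jund points below 0 would be above it with scaling on spike-ins, as would Jun, also with no scaling, though all 4 would stay below the median of all genes. On the right Fosl2 (-5.70) and Jun (-3.72) lie lowest, and the open triangle is a bound for the second Fosl2 probe.

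ES cells were set beside MEF to compare the pluripotent state with the cells of origin. Fosl2 was 52.1-fold lower in ES cells than in MEF and Jun 13.2-fold lower. Fosl1 was 3.68-fold, Atf3 3.47-fold, Jund 2.72-fold and Fos 2.25-fold lower. Junb, Egr1 and Fosb differed by less than 2 times their error. In all, 6 of 9 genes were at least 2-fold lower, against 27.3% of 18666 gene labels. As many as 32.9% of all labels were higher by 2-fold, and 0 of the 9 members, and 60.1% of all labels were past 2-fold either way. The 6 members are a larger share than that of all genes lower, which was not tested. The median log2 difference of the 9 genes was -1.44, and that of all genes 0.21.

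The Fosl2 difference was -5.70 ± 0.21 at its brighter probe. At the dimmer probe the ES cell signal of 6.37 units was not well above background, so Fosl2 was at least 5.39-fold lower there. The mean of both probes gave -4.07, and normexp correction gave -4.67 and -4.78. For Jun, with 213 units in ES cells against 2783 in MEF, the difference was -3.72 ± 0.20, and -3.43 and -3.46 with normexp. The spot ranges of Jun in ES cells and MEF were far apart compared with their standard deviations of 0.06 on the log2 scale in each. Other probes with repeated spots were not compared in this way.

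Among the other Fos genes, Fosl1 differed by -1.88 ± 0.21 and Fos by -1.17 ± 0.21. The Fos difference was -0.82 and -0.90 with normexp, which is under 2-fold. Fosb went the other way, at 0.54 ± 0.36, but this is within 2 times its error and was 0.07 and 0.05 with normexp. Atf3 differed by -1.80 ± 0.21 and Jund by -1.44 ± 0.20.

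Junb and Egr1 stood close to their MEF levels in ES cells. Junb differed by -0.26 ± 0.20 at the brighter probe and -0.09 ± 0.20 at the other, and Egr1 by -0.32 ± 0.20. If 2 errors are allowed on either side, no 2-fold difference in scaled signal of these genes is within that range, although the error model leaves out the spread between cultures. ES cells thus had Junb signal, but little Jun and Fosl2 signal, relative to MEF. Lower signal in a bulk RNA sample can come from fewer expressing cells or from less RNA per cell, which cannot be told apart here. The 10 fibroblast markers were all past 2-fold lower in ES cells and their median log2 difference was -6.22; their part in the differences of the AP-1 genes was not tested.

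**Figure D3:**
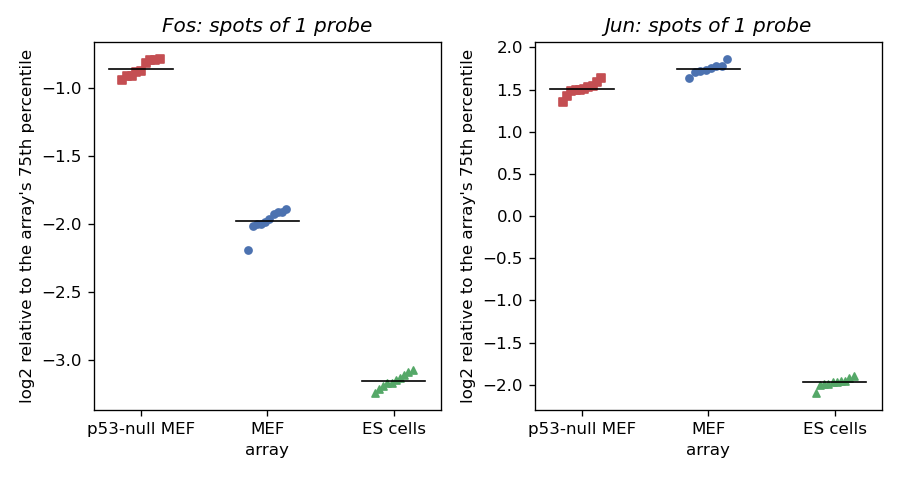
Single spots of the Fos and Jun probes, each point a spot, as log2 relative to the array's 75th percentile, with the mean as a line; spots are repeats on 1 array and not replicate cultures. For Fos the spots lie in 3 separate bands, with p53-null MEF highest. The share of other repeated probes with separate bands was not computed. For Jun the fibroblast spots touch at 1.64, where the order turns without scaling or with spike-ins, which shift all genes alike, and ES cells lie between -2.10 and -1.89.

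Across the 3 arrays, p53-null MEF was highest for Fos, Fosb, Junb, Atf3 and Egr1, and MEF for Fosl1, Fosl2, Jun and Jund, the last 4 of which were highest in p53-null MEF with scaling on spike-ins, through the constant that it adds to every gene of that array. ES cells were lowest for all but Fosb, which was lowest in MEF. The shares of all genes highest or lowest on each array were not computed, so these counts cannot be read as traits of the members. Between ES cells and p53-null MEF, which is no comparison of the design, all 9 genes were lower in ES cells by more than 2 times the error, from -0.47 for Junb to -4.80 for Fosl2. These arrays were on different slides, and no alternative setting was computed for them. The share of all genes lower by more than 2 errors was not computed either, so the count cannot be read as a trait of the members. The neighbours in order that did not differ by more than 2 errors were p53-null MEF and MEF for Jun and Junb, and MEF and ES cells for Fosb, Junb and Egr1. Fosl2 had the widest range of the 9, at 5.70, and Junb the narrowest, at 0.47. Both comparisons share the MEF array, so an error in it moves both.

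The members were set beside other genes of the same response. Of 39 other immediate early genes measured between the fibroblast arrays, 5 were past 2-fold higher, 2 lower and 32 neither in p53-null MEF, and their median was 0.22 on the log2 scale. All gene labels gave 18.6% higher, 16.6% lower and a median of 0.03. Differences between the lists and all labels were not tested, here or below. Rgs2, a regulator of G protein signalling, was 2.72-fold higher, the stress gene Gadd45b 2.28-fold and the nuclear receptor gene Nr4a2 2.21-fold, with other probes of Rgs2 and Gadd45b at 0.63 and 0.67. Btg2, an antiproliferative gene that p53 is known to activate, was 7.59-fold lower and the GTPase gene Rhob 2.13-fold lower. The Egr1 relative Egr2 differed by 0.92 ± 0.20, with 990 units against 416. Npas4, an activity-induced factor, had 73.1 units in p53-null MEF, at least 4.71-fold more than in MEF, where it was below background.

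Between ES cells and MEF the other immediate early genes went both ways, with 22 of 38 at least 2-fold lower, 9 higher and 7 neither, and a median of -1.23. All gene labels gave 27.3% lower, 32.9% higher and a median of 0.21. The GTPase gene Gem was 16.2-fold, the bZIP repressor gene Nfil3 10.3-fold and Ier5 10.3-fold lower. Egr4 was 22.4-fold higher in ES cells, with 337 units against 15 in MEF, near the lowest signal above background there. Ier2 was 5.13-fold higher at its brighter probe, with another at -0.55, and the synaptic gene Arc 4.88-fold higher.

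Among 21 measured bZIP relatives and partners of AP-1, 2 were higher and 5 lower by 2-fold in p53-null MEF, with a median of -0.29, and 4 were higher and 12 lower in ES cells, with a median of -1.85. For all labels the shares were 18.6% higher and 16.6% lower in p53-null MEF, and 32.9% and 27.3% in ES cells. Batf3, a partner of Jun proteins in immune cells, was 14.4-fold higher in p53-null MEF and 8.42-fold higher in ES cells, with 623 and 292 units against 34.4 in MEF. Cebpa, a differentiation factor, was 7.71-fold lower in p53-null MEF, Atf7 2.69-fold and Maf 2.22-fold, with another Atf7 probe at -0.84. In ES cells Jdp2, which encodes a repressing partner of Jun, was 28.0-fold lower and Cebpd 14.7-fold. Creb1, of the cyclic AMP response, was 3.14-fold and 4.49-fold higher in p53-null MEF and ES cells at its brighter probe, while its others ran from -0.11 to 0.39 and from -0.49 to -0.03. Atf2, another partner of Jun, was 3.43-fold higher in ES cells.

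Genes of the MAP kinase and serum response factor input had medians of 0.02 in p53-null MEF and -0.02 in ES cells. The latter was 0.22 with spike-ins, where the median of all genes was 0.44. Of 30 measured, 3 were higher and 2 lower by 2-fold in p53-null MEF, and 6 higher and 7 lower in ES cells. Beside these stand 18.6% of all labels higher and 16.6% lower in p53-null MEF, and 32.9% and 27.3% in ES cells. Mapk8, which encodes the Jun kinase JNK1, was 5.18-fold higher in p53-null MEF at its brightest probe, with others from -0.37 to 1.10. Map2k6 was 2.49-fold and Rps6ka1 2.41-fold higher, and the receptor gene Pdgfra 4.12-fold and the JNK activator gene Map2k7 3.45-fold lower, with other probes of Rps6ka1 at -0.36 and Map2k7 at -0.30. In ES cells the growth factor receptor genes Pdgfrb and Pdgfra were 102-fold and 70.4-fold lower, and Elk3, which encodes a partner of serum response factor, 21.1-fold. Both receptor genes are also among the fibroblast markers. The kinase gene Rps6ka1 was 27.3-fold higher, with another probe at 1.61, Braf 3.44-fold and Rps6ka5 2.69-fold. Srf itself, at 6171 units in p53-null MEF, 3528 in ES cells and 4262 in MEF, differed by 0.21 and -0.28.

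Feedback genes and inhibitors had a median of 0.29 in p53-null MEF, where 4 of 21 were higher and 0 lower by 2-fold. There 18.6% of all labels were higher and 16.6% lower. The phosphatase genes Dusp2 and Dusp16 were 3.11-fold and 2.78-fold higher and Rasa1, which restrains Ras, 3.02-fold, with another Dusp16 probe at 0.20. In ES cells 7 were higher, 6 lower and 8 neither, with a median of 0.55, beside 32.9% of all labels higher and 27.3% lower. Spry4, an inhibitor of receptor tyrosine kinase signalling, differed by 3.32 on the log2 scale, and Dusp2 was 9.97-fold and the ubiquitin ligase gene Fbxw7 2.98-fold higher. Nab2, which encodes a corepressor of Egr factors, was 10.4-fold and Dusp8 7.38-fold lower, and Dusp10 differed by -2.32.

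Genes known as AP-1 targets had a median of -0.12 in p53-null MEF, with 4 of 34 higher, 8 lower and 22 neither. Among all labels 18.6% were higher and 16.6% lower. Without scaling the median of the targets was 0.21, below the 0.38 of all genes, and with the mean of all probes it was -0.35. The collagenase gene Mmp13 was 13.7-fold and the cyclin gene Ccnd1 4.16-fold lower, and Fn1, the fibronectin gene, 5.35-fold lower with other probes from -2.74 to 1.41. The growth factor gene Ereg was 2.77-fold higher, with another probe at -2.28, and the methyltransferase gene Dnmt1 2.38-fold. Of 35 measured in ES cells, 24 were past 2-fold lower, 3 higher and 8 neither, and the median was -2.15. The shares of all labels were 27.3% lower and 32.9% higher. The chemokine gene Cxcl1 was 53.2-fold, the stromelysin gene Mmp3 50.7-fold and the matrix gene Tnc 28.5-fold lower, with another Tnc probe at -2.08. Cxcl1 had 16.3 units in ES cells, near the lowest signal above background there, which limits its fold. Dnmt1 was 4.80-fold, Ezr 2.28-fold and Krt18 2.05-fold higher.

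Stress responses are also known to switch on immediate early genes. The counts given next stand beside 18.6% of all labels higher and 16.6% lower in p53-null MEF, and 32.9% and 27.3% in ES cells. Heat shock genes had a median of 0.12 in p53-null MEF, with 3 of 11 higher and 1 lower by 2-fold. The chaperonin genes Hspd1 and Hspe1 were 2.46-fold and 2.32-fold higher and Hsp90aa1 2.10-fold, and Hsf1, the heat shock factor gene, 3.21-fold lower with other probes from 0.13 to 0.74. The inducible Hspa1a differed by -0.67 in p53-null MEF, with other probes from -2.04 to -0.53. It was 4.07-fold lower in ES cells, where Bag3 was 3.91-fold lower. In ES cells 6 heat shock genes were higher and 2 lower, with a median of 1.45, led by Hspd1 at 4.50-fold, Hsp90aa1 at 3.61-fold and Hspb1 at 3.40-fold. Genes of the integrated stress response, which also includes Atf3, had medians of -0.12 and -0.79. In p53-null MEF 3 of 20 were higher and 3 lower, among them the cystine transporter gene Slc7a11 at 4.51-fold, Mthfd2 at 2.51-fold and Phgdh at 2.05-fold higher (other Phgdh probes at 0.33 and 0.59), and Vldlr at 3.46-fold, Ppp1r15a at 2.83-fold and Sesn2 at 2.65-fold lower. In ES cells 9 were lower and 0 higher, led by Aldh1l2 at 24.4-fold, Vldlr at 20.5-fold and Nupr1 at 13.6-fold.

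**Figure D4:**
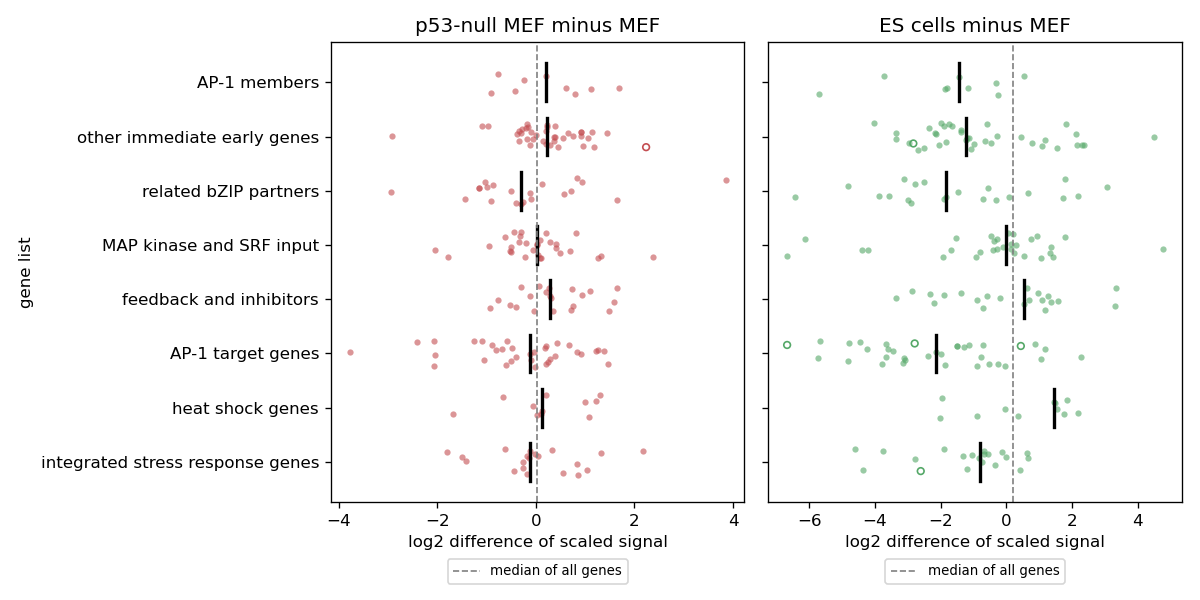
Log2 differences from MEF of the single genes of 8 lists, p53-null MEF on the left and ES cells on the right; points are genes, open points bounds, black bars list medians and the dashed line the median of all genes. On the left the list medians lie between -0.29 and 0.29, all of them positive without scaling or with spike-ins, where the median of all genes is 0.38 and 2.08; with cyclic loess those of heat shock genes (-0.03) and MAP kinase input (-0.12) are negative. On the right the AP-1 targets (-2.15) and bZIP partners (-1.85) lie lowest and heat shock genes (1.45) highest.

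Markers of other cells differed between the fibroblast samples. Their sums are of signals before scaling, and their medians are of scaled log2 differences. Counts past 2-fold stand beside 18.6% of all labels higher and 16.6% lower in p53-null MEF. Of 9 macrophage markers, 4 were well above background in p53-null MEF and 6 in MEF, with summed signals of 616 and 2553 units and a median of -0.75, and 3 of 7 measured were lower and 1 higher by 2-fold. Lyz2 alone gave 126 and 1980 units of these sums. Of 6 neural crest and glial markers, 4 and 5 were well above background, with sums of 689 and 5049 units, and all 5 measured were lower in p53-null MEF. Of the sums, 551 and 3664 units came from S100b. Endothelial markers summed to 869 and 1978 units, with 3 and 4 of 6 above background. Of 4 measured, 1 of them as a bound, 1 was higher and 2 lower by 2-fold, and the median was -1.99. Kdr, 2.54-fold higher in p53-null MEF, gave 646 and 202 units of the sums. Mmrn2, 10.7-fold lower, gave 182 and 1550 units. Epithelial markers summed to 7732 and 3939 units, of which Krt18 gave 6939 and 2364. With 4 of 7 above background in each, 2 of 5 measured were higher and 2 lower by 2-fold, and the median was -0.99. Fibroblast markers had a median of -0.38, with 3 of 10 lower. The medians of the fibroblast, macrophage and epithelial markers were positive with spike-ins, which shift all genes alike, and that of the epithelial markers was also 0.47 without the background requirement. The part of such cells in the levels of Fos, Fosb, Atf3 and Egr1 was not tested.

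Genes with the most similar pattern were sought among 12347 RefSeq-named genes well above background on all 3 arrays, by the distance between the 2 log2 differences from MEF. With only 3 arrays many genes come close by this measure. Prr5l and 1700025G04Rik lay nearest to Fos, at distances of 0.05 and 0.06, Dock8 and Suv39h1 to Fosb (0.05 and 0.07), Efna1 and Slc43a3 to Fosl1 (0.04 each) and Ddr2 and Il1rl2 to Fosl2 (0.04 and 0.06). Pmepa1 and Nfic lay nearest to Jun (0.02 each), Srf and Actn4 to Junb (0.02 and 0.03), Exoc7 and Slc11a2 to Jund (0.01 and 0.02), Ifit2 and Lpgat1 to Atf3 (0.03 and 0.07) and Kctd15 and Ncoa6 to Egr1 (0.01 and 0.02). Within a distance of 0.25 there were 15 genes around Fosl2, 20 around Fosb and 24 around Fos, but 276 around Junb.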

How the data were processed

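Cy3 intensities came from 3 scanner files deposited by the authors. Per the file headers, Feature Extraction 9.5.3.1 subtracted a spatial background surface and applied a multiplicative detrend within each array, with local background correction off. The deposited value table held the same intensities (ratios from 0.995 to 1.005), with no log scale or centring and medians of 51.8 (p53-null MEF), 50.0 (ES cells) and 43.2 (MEF). Per the file headers, the other columns used are 0/1 marks for outlier spots and for signal well above background.

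From these, log2 of the processed signal minus the array's 75th percentile over 43379 non-control spots was computed, leaving out 62, 192 and 176 outlier spots (p53-null MEF, MEF, ES cells). No spot was saturated. A probe counted as above background if 50% or more of its spots carried that mark. A difference with 1 array below background took the dim array's own signal or its lowest signal well above background, whichever was higher, and is written "at least". The probe with the highest mean signal stood for a gene with several. Names came from the RefSeq table of GRCm38.p6 (24375 probes by accession, 6301 by symbol, 2426 by synonym; 8072 kept the file's name). In the scanner's model a bright signal has a 10% error. Among 245 probes printed at 10 spots, the median coefficient of variation between spots of probes above background was 3.62% (p53-null MEF), 3.32% (ES cells) and 4.30% (MEF). Exon positions of probes were not analysed here, as no mm8 genome was used.

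The members and the gene lists were chosen with earlier results of these data known. Some genes stand in 2 lists, so the lists are not separate sets of genes. Named genes are all members and, in each other list, the 3 largest measured differences past 2-fold in each direction, some of which are not reported here. Egr2, Npas4, Srf, Hspa1a, Trp53, Xist and Ddx3y were named outside that rule, after their values were seen. The calculation was tested on simulated data, with shifts well past 2-fold placed on brighter probes only. That test placed no shift near 2-fold and none on probes as dim as that of Fosb. Alternatives were normexp correction (limma 3.58.1), quantile, median, cyclic loess, spike-in and no scaling, the mean of all probes, no background requirement, a 3-fold threshold and the deposited value table. R 4.3.3 and Python 3.11.15 were used.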

Additional observations from a re-analysis of the deposited data

How the results depend on the processing

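The count of members past 2-fold higher in p53-null MEF was 2 in the main setting. It was 0 with normexp under 75th percentile scaling, 0 with normexp and quantile normalization, 1 with a 3-fold threshold and 9 with scaling on spike-ins. Spike-in scaling adds 1.97 to every log2 difference of p53-null MEF from MEF and moved the median of all genes from 0.03 to 2.08. Relative to that median Fosl1, Fosl2, Jun and Jund stayed lower. Whether spike-ins were added in equal amounts was not given in the sources used here. The other 36 values of the 4 member counts were within 1.5 times the main count, including the count of lower members in ES cells. Under the 8 alternatives to the single-gene values other than spike-ins, every member kept its direction in both comparisons, except Jun in p53-null MEF, at 0.09 without scaling. The median of the ES cell markers in p53-null MEF was 0.74 with spike-ins, against -1.42 in the main setting. Relative to the median of all genes it was -1.35 with spike-ins and -1.45 in the main setting. The main setting measured 4 of these 8 markers, 2 of them as bounds. With the mean of all probes the median of integrated stress response genes in p53-null MEF was 0.01 and that of MAP kinase input in ES cells 0.09, each of the other sign. With 1 array a group no replicate could be left out, and no paired analysis was possible because each group holds 1 array. Fosb in MEF lies near the background of its array, which limits its fold.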
